A study of Mus musculus with 24 samples.

Results

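Aquaporins are membrane channels, and the 10 members described here are Aqp1, Aqp2, Aqp3, Aqp4, Aqp5, Aqp6, Aqp7, Aqp8, Aqp9 and Aqp11. They were chosen by name, as the mouse genes of the family whose RefSeq accession an array probe carries, out of 22911 genes with a symbol on the array. Their 16 probes include 6 genes with a pair of probes, and each gene was read from its brightest probe over all arrays. The RNA was from male C57BL/6J mice aged 10 weeks (10W) or 90 weeks (90W), from kidney, liver, lung or white adipose tissue (abbreviated WAT), with 3 samples for each tissue and age and 24 arrays in all. No treatment or allele is given for any sample. The WAT depot is not given in the sources used here. The labels number the samples but do not say which tissues share a mouse, so p-values measure the spread between these samples.

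Water crosses cell membranes through aquaporins along osmotic gradients. Aqp1, Aqp2, Aqp4 and Aqp5 pass mainly water, Aqp3, Aqp7 and Aqp9 also pass glycerol and are called aquaglyceroporins, and Aqp11 is a distant member found inside cells. In the kidney, Aqp1 serves the proximal tubule and Aqp2 is the vasopressin-regulated channel of the collecting duct, where Aqp3 lies on the opposite membrane of the same principal cells. Aqp5 is known from alveolar type 1 cells and glands, Aqp7 from adipocytes that release glycerol, and Aqp9 from hepatocytes that take it up.

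All levels are log2 signals relative to the 75th percentile of the array, so a level of 0 equals that percentile. A probe is called well above background by the image software. Between 58.6% and 71.1% of probes were well above background on an array. Each tissue lay on a slide of its own, so tissue and slide cannot be told apart, while both ages of a tissue shared a slide. The labelled tissues carried their markers at 10W: the summed level of 8 hepatocyte markers was 12.1 to 12.2 in liver, that of 8 alveolar type 2 markers 10.4 to 10.5 in lung, that of 9 proximal tubule markers 9.73 to 9.80 in kidney, and that of 8 adipocyte markers 10.6 to 11.1 in WAT. Some arrays stood apart. In young WAT replicate 1, the 8 epididymis markers summed to 10.1, against -2.97 and 0.90 in the other young WAT samples, with Lcn5 at 8.76 and Crisp1 at 7.58. Hepatocyte markers summed to 7.84 in aged lung replicate 1 and to 1.74 to 4.33 in the other 5 lungs. Neutrophil markers summed to 10.4 in aged liver replicate 2, against 4.73 and 4.14 in the other aged livers. Calls that ended or began without young WAT replicate 1, and values that turned on 1 of these arrays, are also given without it.

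Aqp2, Aqp5 and Aqp6 follow each other on chromosome 15, with no other protein-coding gene of the RefSeq table between them, and Aqp3 and Aqp7 are neighbours on chromosome 4. The starts of 4 of these genes are shown because Aqp2, Aqp3 and Aqp6 were brightest in kidney and Aqp5, which lies between Aqp2 and Aqp6, was brightest in lung. Each is the 120 bases before an annotated start, 5′ to 3′ on the gene's strand, from RefSeq on GRCm38.p6, which is not the mm9 build of the array. Capitals mark the letters TATAA, a core promoter motif, and CACGTG, the E-box motif, searched on both strands.
Aqp2 (chr15:99578936-99579055, plus strand): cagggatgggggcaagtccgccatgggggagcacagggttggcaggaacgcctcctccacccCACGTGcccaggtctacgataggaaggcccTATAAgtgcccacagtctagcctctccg
Aqp5 (chr15:99590908-99591027, plus strand): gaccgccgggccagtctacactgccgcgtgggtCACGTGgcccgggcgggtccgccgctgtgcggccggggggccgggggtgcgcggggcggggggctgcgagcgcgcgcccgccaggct
Aqp6 (chr15:99601080-99601199, plus strand): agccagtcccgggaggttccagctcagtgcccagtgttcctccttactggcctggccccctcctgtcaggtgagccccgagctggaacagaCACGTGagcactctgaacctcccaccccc
Aqp3 (chr4:41098184-41098303, minus strand): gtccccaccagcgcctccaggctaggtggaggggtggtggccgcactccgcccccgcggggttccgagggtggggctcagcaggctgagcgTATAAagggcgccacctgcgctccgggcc

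The 3 starts on chromosome 15 each held CACGTG. Over the 250 bases before a start, 6.02% of the 32851 promoters in the table held CACGTG and 22.8% held TATAA. The promoter table matched 9 of the 10 members, and Aqp8 was the other member with CACGTG. These letters were chosen after the sequences were seen and are a description only.

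Most aquaporins had a tissue where they were far brighter than elsewhere. Levels at 10W were compared in 6 pairs of tissues by limma over all 24 arrays, and between 7 and 10 of the 10 members differed in each pair. The share of all genes that differed was 72.4% for liver against lung, 54.8% for liver against kidney, 66.5% for liver against WAT, 62.7% for lung against kidney, 52.4% for lung against WAT and 55% for kidney against WAT.

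**Figure D1:**
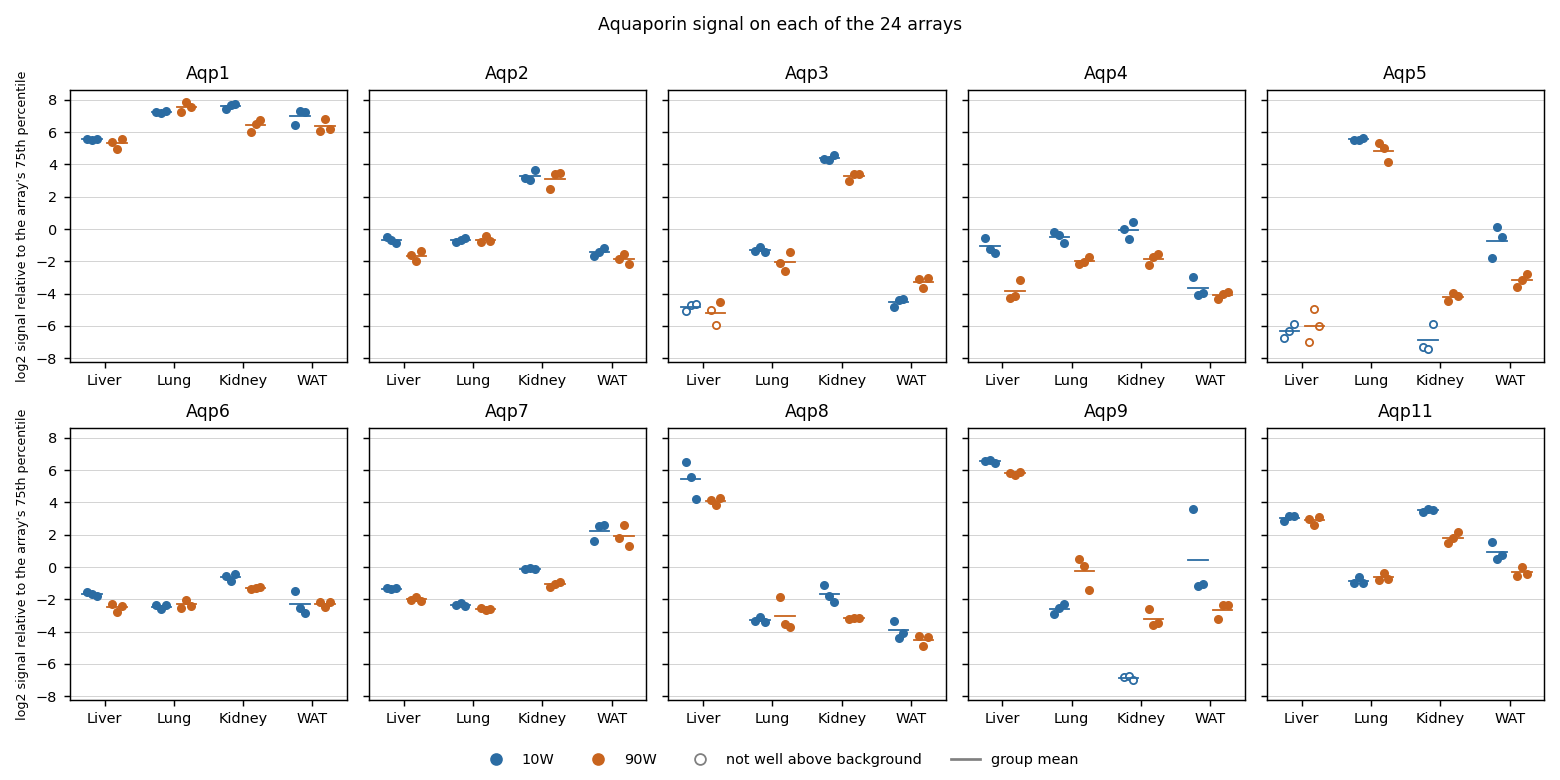
Signal of each aquaporin, by its brightest probe, on each of the 24 arrays (y axis, log2 relative to the 75th percentile of the array) by tissue and age. Points are samples, open where not well above background, and lines are means of 3 samples; Aqp5 stood at 5.50 to 5.63 in young lungs, and Aqp9 at 6.48 to 6.60 in young livers.

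Among the water channels, Aqp1 was bright in every tissue. Its mean level at 10W was 7.63 in kidney, 7.25 in lung, 7.01 in WAT and 5.56 in liver. The liver lay below each of the others, by 1.45 (WAT) to 2.07 (kidney), while kidney against lung (-0.38 for lung minus kidney, adjusted p = 0.179) and lung against WAT (0.23, adjusted p = 0.438) did not pass the test. Kidney against WAT passed (0.62, adjusted p = 0.0386) but not without young WAT replicate 1 (0.33, adjusted p = 0.232), nor under quantile (0.29), median (0.58) or spike-in scaling (0.66) or with no filter on dim probes.

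Aqp2 and Aqp3, the collecting duct channels, were brightest in kidney. Aqp2 reached 3.17, 3.01 and 3.67 in the young kidneys and averaged -0.69 in liver, -0.70 in lung and -1.45 in WAT. The kidney exceeded the liver by 3.97 (SE 0.25, adjusted p = 1.53e-10). Without young WAT replicate 1 the lung and WAT difference of 0.75 became 0.62 and no longer passed (adjusted p = 0.0667). Liver and lung did not differ beyond their spread (0.01, adjusted p = 0.973), although spike-in scaling put the liver 1.38 below the lung (adjusted p = 0.000204). Aqp3 stood at 4.32, 4.27 and 4.58 in young kidneys, averaged -1.29 in lung and -4.51 in WAT, and no young liver was well above background. Lung exceeded WAT by 3.22. Its kidney level was at least 492-fold that of the liver, a bound in which the dim group takes, per array, its own signal or the weakest signal among probes well above background, whichever is higher.

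Aqp5 was the lung member. The young lungs gave 5.52, 5.50 and 5.63, whereas young WAT gave -1.79, 0.11 and -0.49, and no young liver or kidney was well above background by that probe. By it, lung exceeded WAT by 6.28 (SE 0.51, adjusted p = 1.39e-08), liver by at least 1100-fold and kidney by at least 2031-fold. These bounds do not hold for the other Aqp5 probe, which averaged 3.69 in young lungs, -4.90 in young livers (1 of 3 well above background) and -4.70 in young kidneys (3 of 3), differences of 8.59 and 8.39 on the log2 scale. Its neighbour Aqp6, a channel of intercalated cells, looked different by each probe. The brightest probe averaged -0.63 in kidney, -1.69 in liver, -2.29 in WAT and -2.45 in lung at 10W. WAT and lung did not differ (adjusted p = 0.587), and the step from liver to lung turned from 0.76 to -0.63 under spike-in scaling (adjusted p = 0.0399). Liver exceeded WAT by 0.60 and, without young WAT replicate 1, by 0.99, and both passed. The other Aqp6 probe stood at 3.89, 3.87 and 4.08 in young kidneys and was not well above background in any liver or lung. The only sample outside the kidney in which that probe was well above background was young WAT replicate 1, at 3.13.

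Aqp4, best known from astrocytes, averaged below the 75th percentile in every tissue while well above background on all 24 arrays, with means of -0.05 in kidney, -0.47 in lung, -1.08 in liver and -3.68 in WAT at 10W. Kidney, lung and liver each exceeded WAT, by 3.63, 3.21 and 2.60. The neighbouring levels in that order did not differ for kidney and lung (adjusted p = 0.297) or for lung and liver (adjusted p = 0.122), although spike-in scaling separated lung from liver (adjusted p = 4.57e-05).

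Liver held the highest levels of Aqp8 and Aqp9. Aqp8, a water channel of hepatocyte membranes, varied between young livers, at 6.53, 5.58 and 4.22. Its liver mean exceeded those of kidney, lung and WAT by 7.12, 8.74 and 9.38, and lung and WAT did not differ (0.64, adjusted p = 0.287). Aqp9 was even in young livers, at 6.57, 6.60 and 6.48, and no young kidney was well above background by that probe, which puts the liver at least 4060-fold higher by it. In young WAT, Aqp9 read 3.57 in replicate 1 and -1.17 and -1.03 in the others. Its mean in WAT exceeded that in lung by 3.03 with replicate 1 and by 1.48 without it (adjusted p = 0.00438 and 0.00595), so both differences passed the test. The other Aqp9 probe is matched to a predicted RefSeq transcript, and the brightest probe to a curated one. This other probe carried none of the liver pattern: it lay between -4.10 and -1.33 in all young samples of the 4 tissues. It was well above background in all 3 young kidneys, and passed neither for liver against lung (0.51, adjusted p = 0.359) nor for liver against kidney (0.92, adjusted p = 0.123).

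Aqp7, the adipocyte glycerol channel, was brightest in WAT, at 1.58, 2.56 and 2.58 in young samples. Kidney came next at a mean of -0.11, then liver at -1.33 and lung at -2.34, and all 6 pairs passed the test. The step from liver to lung turned from 1.01 to -0.38 under spike-in scaling (adjusted p = 0.261). It was also turned by the other Aqp7 probe, which averaged -4.52 in young lungs, all well above background, and -6.43 in young livers, none of them well above background. Aqp11 was high in kidney (mean 3.52) and liver (mean 3.06), which did not differ (adjusted p = 0.114) except under normexp background correction (-0.53 for liver minus kidney, adjusted p = 0.0416) and spike-in scaling (-1.04, adjusted p = 0.00357). WAT averaged 0.95 and lung -0.86, and the 2 Aqp11 probes gave the same order of tissues.

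**Figure D2:**
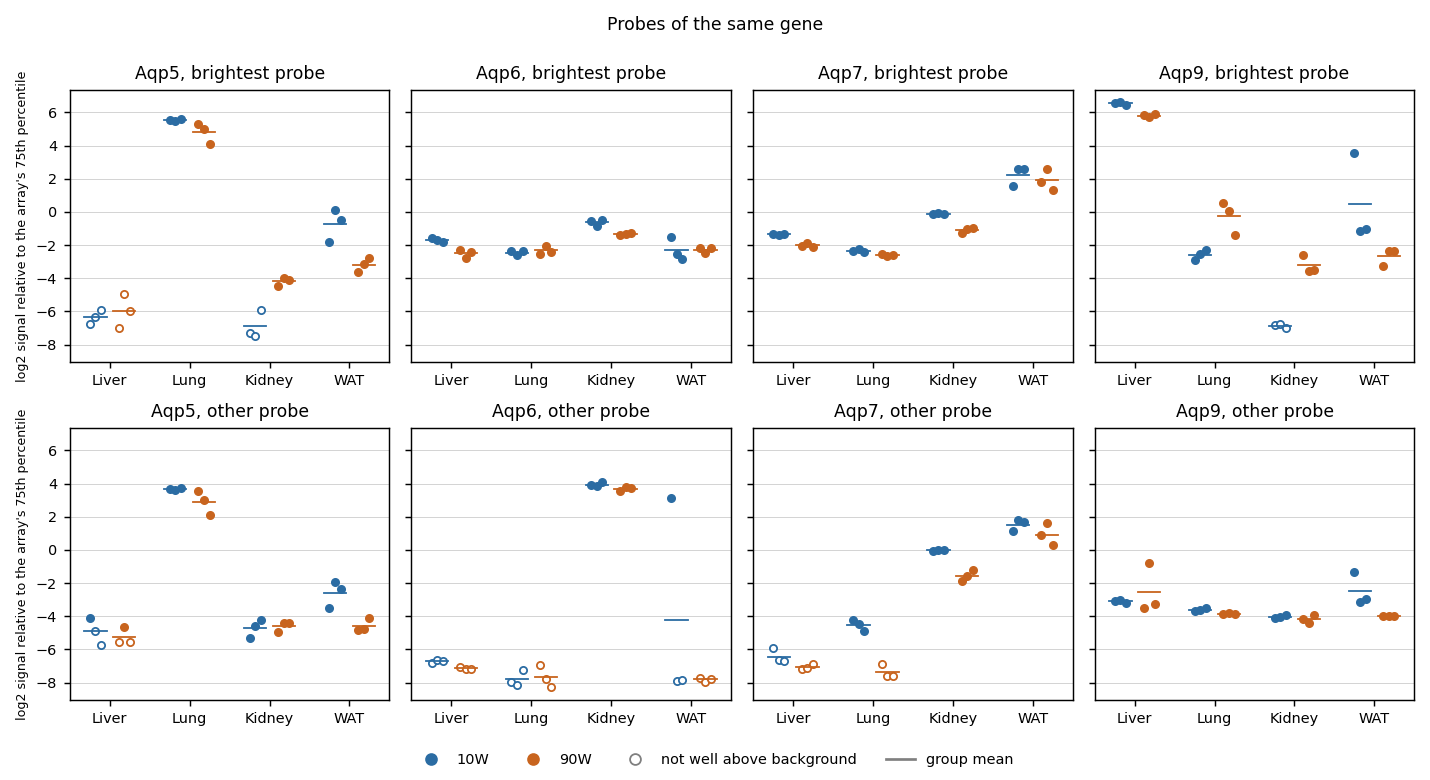
Both probes of Aqp5, Aqp6, Aqp7 and Aqp9 on each of the 24 arrays (y axis, log2 signal relative to the 75th percentile of the array), the brightest probe above and the other below. Points are samples, open where not well above background, and lines are means of 3 samples; the Aqp9 probes differ in liver, and the lower Aqp6 probe stood at 3.87 to 4.08 in young kidneys.

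The kidney showed the broadest change with age. There 7 of 10 aquaporins fell, against 42.5% of all genes tested. Another 2, Aqp5 and Aqp9, were called higher, against 20.7% of all genes (63.2% in either direction), but their probes passed the filter on dim probes through the aged kidneys alone and are described apart. The ages did not overlap for any of the 7 that fell, against 47.5% of all genes lower without overlap. They did not overlap for Aqp5 and Aqp9 either, against 23.2% of all genes higher, but the filter favoured that outcome for these 2. The median change of the 10 members, Aqp5 and Aqp9 included, was -1.05, beside -0.23 for all genes. Spike-in scaling moved the median of all genes to 0.12, and under it 6 aquaporins still fell, while Aqp6 (-0.34, adjusted p = 0.0918) no longer passed.

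Aqp11 had one of the clearest falls. Young kidneys read 3.40, 3.61 and 3.54 and aged kidneys 1.48, 1.77 and 2.14, a change of -1.72 (SE 0.18, adjusted p = 0.000518). The groups did not overlap, and the other Aqp11 probe changed by -1.79. Aqp1 went from 7.45, 7.69 and 7.76 to 6.04, 6.48 and 6.73, a 2.32-fold fall (-1.21, SE 0.19, adjusted p = 0.00234). Every aged kidney lay below every young kidney.

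Of the collecting duct pair, Aqp3 fell and Aqp2 was not called. Aqp3 went from 4.32, 4.27 and 4.58 to 2.96, 3.43 and 3.44 (-1.12, SE 0.16, adjusted p = 0.00177). Aqp2 read 3.17, 3.01 and 3.67 in young kidneys and 2.48, 3.40 and 3.46 in aged kidneys (-0.17, SE 0.31, adjusted p = 0.654). The Aqp2 groups overlapped, and the sign turned under quantile (0.13) and spike-in scaling (0.19). No test of Aqp3 against Aqp2 was made.

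The remaining falls in the kidney were those of Aqp4, Aqp6, Aqp7 and Aqp8. Aqp4 went from 0.01, -0.59 and 0.44 to -2.25, -1.73 and -1.54 (-1.79, SE 0.30, adjusted p = 0.00297), and its other probe by -1.80. Aqp8 changed by -1.49 (adjusted p = 0.00349). Aqp7 changed by -0.98 (adjusted p = 0.000559) by its brightest probe and by -1.55 by the other. Aqp6 changed by -0.69 (adjusted p = 0.00334) by its brightest probe, while for the probe that was bright in kidney the difference of -0.24 did not pass (adjusted p = 0.0822).

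The brightest probes of Aqp5 and Aqp9 were well above background in all 3 aged kidneys and in no young one, which is also how they came to be tested. Aqp9 read -2.59, -3.58 and -3.47 in aged kidneys, at least 4.67-fold higher by that probe. Aqp5 read -4.47, -3.99 and -4.12, at least 2.37-fold higher by that probe. In the fit with no filter on dim probes, limma's adjusted p was 0.000438 for Aqp9 and 0.00423 for Aqp5. These values too rest on young kidneys not well above background, so they carry no weight as a test. The other probe of each gene was well above background in all 3 young kidneys and was not called, at -0.14 for Aqp9 (adjusted p = 0.406) and 0.10 for Aqp5 (adjusted p = 0.770). Under normexp background correction the Aqp5 change shrank to 0.16 and was not called (adjusted p = 0.275), and that of Aqp9 to 0.69 (adjusted p = 0.00538).

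**Figure D3:**
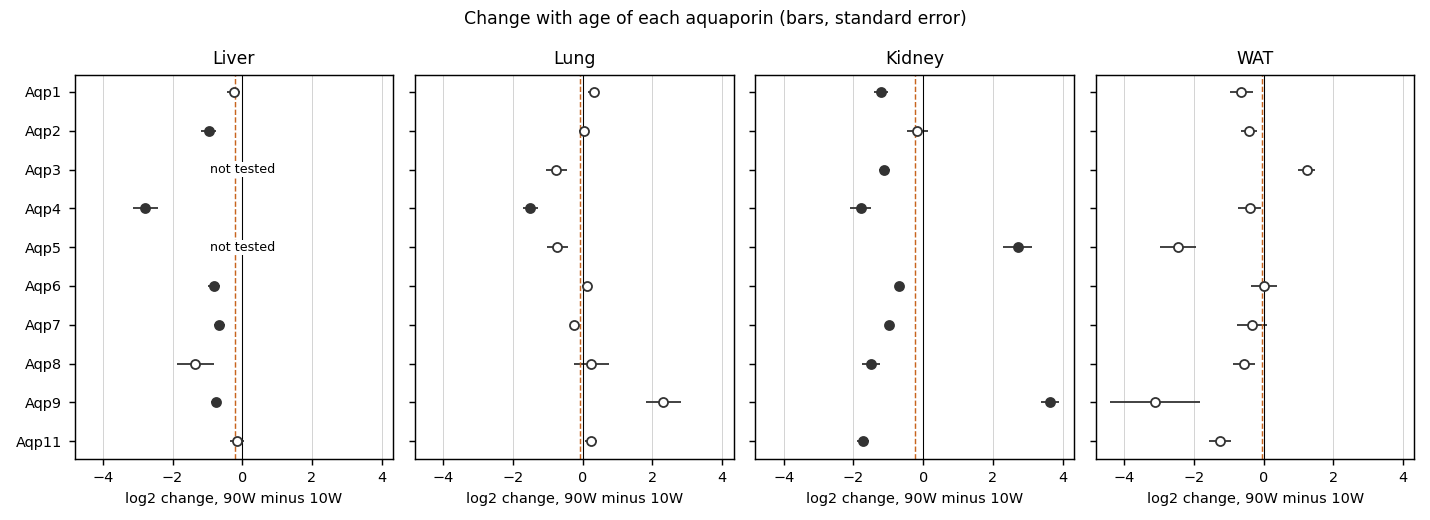
Change with age of each aquaporin (x axis, log2 90W minus 10W; bars, standard error) in the 4 tissues. Filled points passed the test at an adjusted p under 0.05, the dashed line is the median change of all genes in that tissue, and 7 filled points lie below 0 in the kidney; the kidney points of Aqp5 and Aqp9 start from young kidneys not well above background.

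Genes of vasopressin signalling and of urine concentration were called in kidney about as often as all genes or less. Of 19 genes of vasopressin signalling and Aqp2 trafficking, 10 fell and 2 rose, with a median change of -0.35, which in either direction is the 63.2% of all genes. By lowest p these were Adcy3, an adenylyl cyclase, which rose from -4.64 to -2.86 (adjusted p = 0.000441), and Stx3, a membrane fusion protein, which fell from 2.31 to 1.63 (adjusted p = 0.000603). Of 14 genes of urine concentration and osmolytes, 7 fell and 1 rose, below that share. Bsnd, the chloride channel subunit barttin, fell from 3.17 to 1.97 (adjusted p = 0.000263), and Kcnj1, the potassium channel ROMK, from 5.34 to 4.09 (adjusted p = 0.0015). Of 14 genes of lipolysis and glycerol use, 11 fell and 2 rose, and of 8 genes of lung fluid transport, 7 fell and 1 rose. Both lists lie above the 63.2% of all genes.

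All 9 proximal tubule markers fell, as did 6 of 8 principal cell and 7 of 8 intercalated cell markers, where 42.5% of all genes did, whereas 1 of 9 endothelial markers fell and 1 rose. The summed proximal tubule level was 9.73 to 9.80 in young and 8.20 to 8.79 in aged kidneys. Macrophage markers rose in 7 of 8 cases, where 20.7% of all genes did. The summed macrophage level was 4.46 to 4.66 in young and 6.45 to 7.04 in aged kidneys. Neutrophil markers, from cells known to carry Aqp9, rose in 4 of 6 cases, against the same 20.7%. Their summed level was -0.88 to -0.10 in young and 1.36 to 3.27 in aged kidneys. In whole tissue, fewer cells of a type and less RNA per cell cannot be told apart, and the part of these cell types in the aquaporin changes was not tested.

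**Figure D4:**
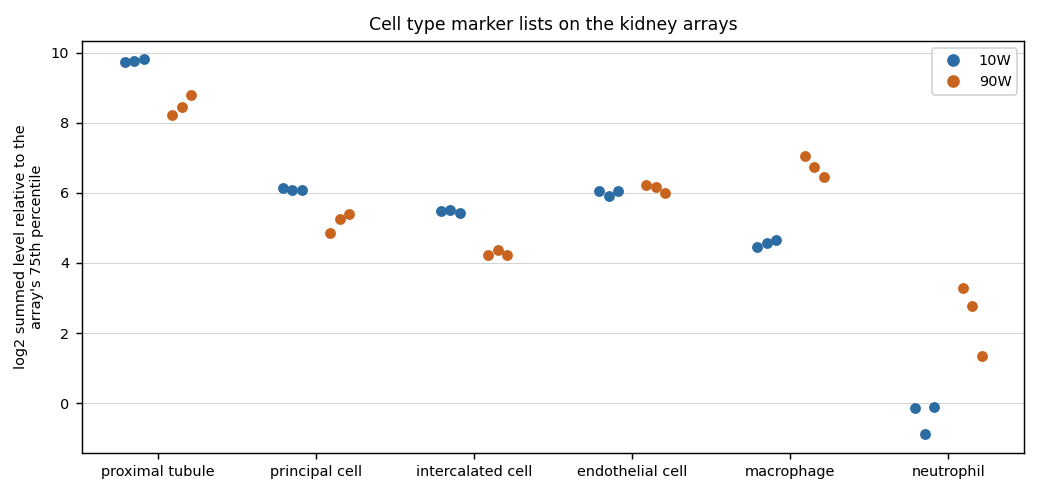
Summed level of 6 cell type marker lists (x axis) on the 6 kidney arrays (y axis, log2 relative to the 75th percentile of the array). Points are samples by age; the proximal tubule list stood at 9.73 to 9.80 at 10W and 8.20 to 8.79 at 90W, and the macrophage list at 4.46 to 4.66 and 6.45 to 7.04.

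In the liver, 5 of 8 tested aquaporins fell and none rose, against 16.8% and 10.6% of all genes (27.4% in either direction). Those 5 were lower in every aged than in every young liver, against 32.9% of all genes lower and 16.9% higher without overlap. Aqp3 and Aqp5 were too dim to test. Aqp4 changed most: young livers read -0.57, -1.21 and -1.46 and aged livers -4.25, -4.17 and -3.18, a 6.90-fold fall (-2.79, SE 0.36, adjusted p = 0.00419). The groups lay far apart, and the fall passed the test under all 16 alternatives. The other Aqp4 probe changed by -3.01. It was well above background in all 3 young livers but in only 1 of 3 aged livers, so that size is uncertain. Aqp9, the main glycerol channel of hepatocytes, went from 6.57, 6.60 and 6.48 to 5.82, 5.71 and 5.89 (-0.74, SE 0.15, adjusted p = 0.0147). Aqp2 (-0.97, adjusted p = 0.0204), Aqp6 (-0.81, adjusted p = 0.0209) and Aqp7 (-0.66, adjusted p = 0.0218) also fell. The other probes of Aqp6 and Aqp7 were not well above background in any liver, and that of Aqp9 was not called (0.59, adjusted p = 0.520).

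The calls of the last 4 of these falls ended when some single samples were left out, while all 4 changes stayed below 0. Calls over all genes dropped too. Those lower went from 4685 to 1185 without young liver replicate 1 and to 977 without young liver replicate 2. Without young liver replicate 1 or without young liver replicate 2, Aqp4 alone passed, and without aged liver replicate 1 there were 3 calls; without aged liver replicate 2, the array with neutrophil markers, there were 5. Under spike-in scaling, which moved the median of all genes from -0.20 to -0.03, Aqp4 alone passed too. Aqp8 read 6.53, 5.58 and 4.22 in young and 4.16, 3.86 and 4.28 in aged livers, and was not called (-1.34, adjusted p = 0.0974). Only the lowest young liver overlapped the aged livers. Without it the change was -1.96 (adjusted p = 0.0224), but that sample was picked out for its value, so this is no test. Over the 16 alternatives the Aqp8 change lay between -2.04 and -0.80. It passed in 3 of them, with an adjusted p of up to 0.225. Aqp1 (-0.24, adjusted p = 0.359) and Aqp11 (-0.16, adjusted p = 0.560) were not called. The other Aqp9 probe read -0.80 in aged liver replicate 2, where neutrophil markers summed to 10.4, and -3.48 and -3.25 in the other aged livers. It read -3.81 in aged lung replicate 2 and -4.00 in aged WAT replicate 3, where those markers summed to 10.5 and 9.80. The part of neutrophils in this probe's level was not tested. Of 13 tested genes of lipolysis and glycerol use, 2 fell, a share near the 16.8% of all genes: Gpd1, which makes glycerol 3-phosphate, from 7.73 to 5.91 (adjusted p = 0.00651), and Lipe, hormone-sensitive lipase, from -1.88 to -2.69 (adjusted p = 0.0128).

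In the lung, 1 of 10 aquaporins passed the test, against 2.86% of all genes that fell and 2.7% that rose (5.57% in either direction). Ages did not overlap for 4 that were lower and 1 that was higher, against 24.2% and 11.6% of all genes. Aqp4 fell from -0.20, -0.38 and -0.85 to -2.16, -2.04 and -1.73 (-1.50, SE 0.21, adjusted p = 0.0208), and its other probe by -1.52. The groups did not overlap, but the call was lost in 5 of 16 alternatives, with an adjusted p of up to 0.0967, among them without young lung replicate 1, without young lung replicate 2, with the methods' t-test and with no filter. Aqp5 read 5.52, 5.50 and 5.63 in young lungs and 5.32, 5.00 and 4.12 in aged lungs, and was not called (-0.73, SE 0.30, adjusted p = 0.190). The lowest sample, aged lung replicate 3, also had the lowest summed level of the 7 alveolar type 1 markers, 6.79, against 7.89 and 8.10 in the other aged lungs and 8.34 to 8.51 in young lungs. None of those 7 markers passed the test.

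Aqp9 was higher in aged lungs without passing the test. It read -2.89, -2.52 and -2.31 in young lungs and 0.52, 0.08 and -1.40 in aged lungs (2.31, SE 0.50, adjusted p = 0.0571). The groups did not overlap, and the change was 2.87 without aged lung replicate 3 (adjusted p = 0.0217) and 1.91 without aged lung replicate 1 (adjusted p = 0.0862). The latter had the highest Aqp9 level and is the array with hepatocyte markers at 7.84. Neutrophil markers summed to 5.72 to 7.10 in young lungs and to 8.28, 10.5 and 7.35 in aged lungs. Of these markers, 1 of 7 rose, where 2.7% of all genes did. The part of either cell type in the Aqp9 level was not tested. Aqp8 was at -1.87 in aged lung replicate 1 and at -3.55 and -3.71 in the other aged lungs. Its change in lung was 0.25 with that array and -0.33 without it, and neither passed.

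The Aqp7 probes differed in the lung. The brightest was not called (-0.24, adjusted p = 0.162), while the other read -4.21, -4.45 and -4.91 in young lungs and was not well above background in any aged lung. It passed the filter through the young lungs alone, so no test of it is given. Adipocyte markers summed to 6.39 to 7.20 in young lungs and 3.13 to 5.07 in aged lungs. Of these markers, 3 of 8 fell, where 2.86% of all genes did. The part of adipocytes was not tested. Of 8 genes of lung fluid transport, 1 fell, Scnn1b, a subunit of the epithelial sodium channel (-1.86 to -2.37, adjusted p = 0.0384). Slc12a2, the NKCC1 cotransporter, read 3.58 and 3.34 on average (adjusted p = 0.189).

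In WAT, no aquaporin passed limma's test, where 1.99% of all genes rose and 0.566% fell (2.56% in either direction). At an unadjusted p under 0.05 there were 3, the methods' t-test called 0 after adjustment, and the fit of all 24 arrays called 4 (Aqp3, Aqp5, Aqp9 and Aqp11). Aqp7 read 1.58, 2.56 and 2.58 in young and 1.80, 2.61 and 1.30 in aged WAT (-0.34, SE 0.43, adjusted p = 0.706), and the groups overlapped. Without young WAT replicate 1 that change was -0.67 (adjusted p = 0.407). Aqp5 read -1.79, 0.11 and -0.49 in young and -3.62, -3.13 and -2.79 in aged WAT (-2.45, SE 0.51, adjusted p = 0.0725). Its groups did not overlap, and without young WAT replicate 1 the change passed (-2.99, adjusted p = 0.0252). Aqp3 was higher in every aged than in every young sample (1.24, SE 0.25, adjusted p = 0.0670), by 1.09 without young replicate 1 (adjusted p = 0.108). Aqp11 was lower in every aged sample (-1.25, adjusted p = 0.114), by -0.94 without young replicate 1 (adjusted p = 0.120). With Aqp9 these made 3 members lower and 1 higher without overlap, against 15% and 13.7% of all genes.

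Young WAT replicate 1, the array with epididymis markers, decided the size of the Aqp9 difference. Aged WAT read -3.23, -2.33 and -2.39, a change of -3.11 (SE 1.29, adjusted p = 0.264) with that array and of -1.55 (adjusted p = 0.0922) without it. Principal cell markers summed to 2.44 on it and to -1.35 and -1.32 in the other young samples. Intercalated cell markers summed to 2.87 on it and to 0.31 and 0.42. Neutrophil markers summed to 3.11, 2.17 and 6.55 in young and to 2.36, 6.26 and 9.80 in aged WAT, where Aqp9 was lower. Their part in the Aqp9 level was not tested. Of 14 genes of lipolysis and glycerol use in WAT none passed limma's test, and the lowest p belonged to G6pc, glucose-6-phosphatase (-2.75 to -3.65, adjusted p = 0.0896), and Mgll, monoglyceride lipase (6.89 to 6.11, adjusted p = 0.217).

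**Figure D5:**
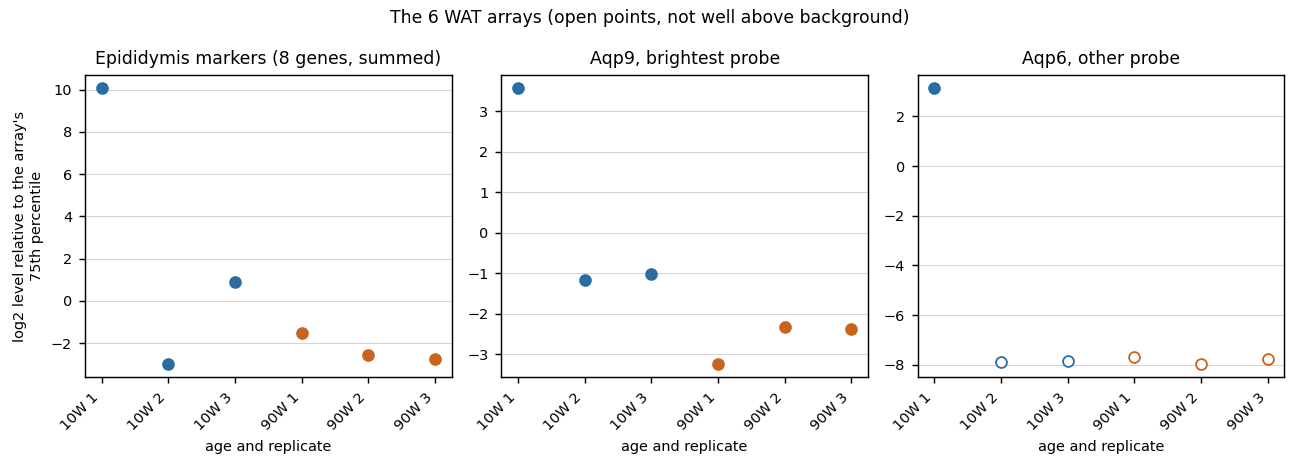
The 6 WAT arrays by age and replicate (x axis): summed level of 8 epididymis markers, Aqp9 by its brightest probe and Aqp6 by its other probe (y axes, log2 relative to the 75th percentile of the array). Points are samples, open where not well above background; young replicate 1 stood at 10.1, 3.57 and 3.13 and was the highest of the 6 in each panel.

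Whether a change with age differed between tissues was tested by limma's contrast of changes, for members well above background on at least 3 of 6 arrays in each of both tissues. The shares of all genes beside these counts are over genes that passed that filter in at least 1 of the 4 tissues. For liver against lung 0 of 8 members differed, against 12.5% of all genes, with the smallest adjusted p at 0.0693 for Aqp2; 5 had an unadjusted p under 0.05, and normexp background correction gave 2 calls. The count was 2 of 8 for liver against kidney (8.63% of all genes), 2 of 8 for liver against WAT (14.7%), 3 of 10 for lung against kidney (18.8%), 3 of 10 for lung against WAT (2.89%) and 3 of 10 for kidney against WAT (20.5%). Aqp11 differed in 4 of these pairs, Aqp9 in 3, Aqp3 and Aqp5 in 2 each, and Aqp1 and Aqp4 in 1 each. For Aqp5 and Aqp9, 2 pairs each include the kidney, where their tested probes were above background at 90W alone, so these counts include members that the filter favoured. Without young WAT replicate 1, Aqp11 no longer differed between liver and WAT (0.78, adjusted p = 0.0666), while Aqp6 did between liver and WAT (-1.22, adjusted p = 0.00204) and between kidney and WAT (-1.10, adjusted p = 0.00261), as did Aqp4 between kidney and WAT (-1.75, adjusted p = 0.0118) and Aqp1 between lung and WAT (1.24, adjusted p = 0.0367). Comparisons that share a tissue share its samples.

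Over the 24 arrays, the genes most like each aquaporin by Pearson correlation of log2 signal are given as a description, since the arrays share 4 tissues and 4 slides. Aqp8 went closest with Agmat (0.99) and Klkb1 (0.99), Aqp5 with Ramp2 (0.98) and Tekt2 (0.98), Aqp2 with Mfsd4b5 (0.98) and Slc22a8 (0.98), and Aqp11 with Chac2 (0.98) and Slc37a4 (0.98). For Aqp7 the closest were Itih5 (0.97) and Nol6 (0.96), for Aqp9 Cables2 (0.97) and Hal (0.96), for Aqp3 Car15 (0.96) and D630029K05Rik (0.96), and for Aqp6 D430041D05Rik (0.96) and Zfp956 (0.96). Aqp1 went with Abca4 and Add3 (both 0.94), and Aqp4 with Kcnk16 (0.90) and Prl3d1 (0.89). The family's other genes on the array, Mip, the lens aquaporin, and Aqp12, a pancreatic member, were not well above background on any array.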

How the data were processed

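Per the file headers, the authors' intensity values came from Agilent Feature Extraction 11.0.1.1 on 1-colour (Cy3) arrays of a mouse design (mm9), whereas the methods name a human kit. The deposited processed signal is background-subtracted and not scaled between arrays. Here 1841 spots marked uneven or outlying were left out, no spot was saturated, and log2 signals were set relative to the 75th percentile of each array. Accessions matched RefSeq (GRCm38.p6) for 32994 of 56605 probes (58.3%). A gene was read from its brightest probe over 24 arrays and tested in a tissue where that probe was well above background on at least 3 of 6 arrays. Ages were compared within a tissue, and tissues and differences of change over all arrays, with limma 3.58.1 (R 4.3.3), adjusting p-values over all genes by Benjamini-Hochberg at a threshold of 0.05. Differences of change are given for aquaporins only where both tissues passed the filter. The adjustment and the shares of all genes for these contrasts are over the 34158 genes of that fit. Those genes passed the filter in at least 1 tissue. The fits were tested on simulated data. Alternatives were normexp (offset 50, on median signals), quantile, median and spike-in scaling, no filter, other probe rules, a replicate block, the methods' t-test, and leaving out each sample. The number of arrays limits the precision. The genes named are the 10 aquaporins, for each the 2 genes most correlated with it, the 2 of each pathway list with the lowest p, and defining markers. Members and lists were chosen with earlier results of these data known, and probe-specific values and arrays standing apart were picked out after seeing the data.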

Additional observations from a re-analysis of the deposited data

Results flagged for a closer look

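The change with age differed between a pair of tissues by limma's contrast of changes in 13 cases, over 6 aquaporins.

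The change of Aqp11 was -1.72 in kidney and -1.25 in WAT, against -0.16 in liver and 0.23 in lung. The difference was 1.56 for liver minus kidney (adjusted p = 0.00623), 1.95 for lung minus kidney (adjusted p = 0.000773), 1.1 for liver minus WAT (adjusted p = 0.0364) and 1.48 for lung minus WAT (adjusted p = 0.0233). Without young WAT replicate 1 the liver and WAT difference was 0.78 and not called (adjusted p = 0.0666).

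For Aqp1, lung minus kidney was 1.53 (0.31 against -1.21, adjusted p = 0.00502), and it did not pass under quantile normalization (0.91, adjusted p = 0.0748) or spike-in scaling (1.01, adjusted p = 0.131). The change of Aqp4 was -2.79 in liver and -0.40 in WAT, a difference of -2.38 (adjusted p = 0.00406).

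The change of Aqp3 was -1.12 in kidney, -0.76 in lung and 1.24 in WAT. The difference was -2.35 for kidney minus WAT (adjusted p = 0.00137) and -1.99 for lung minus WAT (adjusted p = 0.0184). The change was not called within WAT, where Aqp3 was dim. Young WAT read -4.81, -4.41 and -4.33, and the weakest signals well above background on those arrays were -5.42, -5.77 and -5.70.

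Aqp5 gave 5.16 for kidney minus WAT (adjusted p = 0.000139) and -3.44 for lung minus kidney (adjusted p = 0.00314). Its young kidneys were not well above background by this probe, which passed the filter there through the aged kidneys alone. The kidney change of 2.71 in both differences therefore has only a bound, 1.25, and their sizes and adjusted p carry no weight as a test. The lung and kidney difference was -0.89 and not called under normexp background correction (adjusted p = 0.101).

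Aqp9 gave 6.76 for kidney minus WAT (adjusted p = 0.00068), -4.39 for liver minus kidney (adjusted p = 0.0216) and 5.42 for lung minus WAT (adjusted p = 0.0152). The kidney change of 3.65 in the first 2 starts from young kidneys not well above background and has only a bound, 2.22, and the probe passed the filter there through the aged kidneys alone, so those adjusted p carry no weight as a test. Without young WAT replicate 1 the differences with WAT were 5.20 for kidney and 3.86 for lung (adjusted p = 0.000977), and without aged lung replicate 1 that of lung with WAT was 5.02 (adjusted p = 0.0399). By the other probe none of these 3 passed (1.38, 0.73 and 1.28).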

How the results depend on the processing

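The kidney count of 9 called aquaporins (7 lower, 2 higher) lay between 8 and 9 under the alternatives run, apart from 6, all lower, with the brightest probe within the tissue. The liver count of 5 was 1 under spike-in scaling, 2 with the replicate block, 3 with the methods' t-test and 1 to 5 when a sample was left out. The lung count of 1 was 2 under normexp, median or spike-in scaling (1 lower, 1 higher). It was also 2, both lower, with the mean of a gene's probes. There the second was Aqp7, whose other probe passed the filter through the young lungs alone. The lung count was 0 with no filter, the replicate block or the methods' t-test, and 0 to 2 when a sample was left out. The WAT count of 0 was 4 in the fit of all 24 arrays and 0 to 1 when a sample was left out. The number of aquaporins whose change differed went from 0 to 2 for liver and lung and from 2 to 1 for liver and kidney under normexp, from 2 to 1 for liver and kidney with the second probe of Aqp6 and Aqp9, from 2 to 1 for liver and WAT under spike-in scaling, and from 3 to 5 for kidney and WAT without young WAT replicate 1. Except for Aqp9 in kidney, the changes with age whose sign turned were not called: Aqp1 in liver (0.0227, quantile), Aqp11 in liver (0.0091, spike-in), Aqp2 (-0.13) and Aqp6 (-0.0309) in lung under spike-in scaling, Aqp2 in kidney under quantile (0.13) and spike-in scaling (0.19), and Aqp4 in WAT with the mean of its probes (0.22). Aqp9 in kidney turned to -0.14 with the brightest probe within the tissue. With a sample left out, the change ranged from -0.0750 to 0.0971 for Aqp2 in lung, from -0.0056 to 0.2267 for Aqp6 in lung, from -0.33 to 0.5842 for Aqp8 in lung, from -0.3388 to 0.1468 for Aqp2 in kidney and from -0.2654 to 0.4076 for Aqp6 in WAT. The causes were not tested. Spike-in scaling moved the share of called genes that were higher from 38.6% to 76.7% in liver, from 48.5% to 29.5% in lung and from 32.7% to 64.0% in kidney. Normexp moved it to 24.2% in liver, 60.2% in lung and 21.5% in kidney. Over all genes, the number called moved by over 1.5 times from 7632 in liver (spike-in scaling 3612, no filter 16173, all 24 arrays 11505, block 1696, the methods' t-test 3093, as few as 2485 with a sample left out), from 1687 in lung (no filter 434, all 24 arrays 969, block 1, the methods' t-test 211, as few as 2 with a sample left out) and from 768 in WAT (no filter 482, all 24 arrays 6364, block 366, the methods' t-test 1, as few as 241 with a sample left out). The deviations of same-numbered young and aged samples had correlations from -0.16 to 0.18. Other pairings were not compared, so these values cannot show whether the numbers stand for anything shared. Aged livers share only numbers 1 and 2 with young livers.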
